A study of Homo sapiens with 9 samples.

Results

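This report covers 10 genes that mark neural progenitors or the stem-like state before neural differentiation, followed through the bulk transcriptome of human spinal cord organoids (SCOs). The members are SOX1, SOX2, SOX3, SOX21, NES, MSI1, PROM1, LIN28A, LIN28B and SALL4. They were taken by name and not by a cutoff on a measured value, although earlier results of these data were known. All 10 were found among the 26871 genes present in the deposited counts of all 3 pairs of conditions. SCOs are neural tube-like tissues grown from induced pluripotent stem cells, here of the WTC line, with the genotype labelled WT. RNA was sequenced from 3 libraries of whole SCOs for each of 3 conditions, all exposed for 96 h according to the labels. The study's text describes a shorter VPA exposure and does not state one for the RNA sequencing itself. The conditions were vehicle (FGF), VPA (valproic acid, an anti-seizure drug that inhibits histone deacetylases) and VPA + Rapamycin (an inhibitor of the kinase mTOR). According to the study, several SCOs were pooled for a library, FGF was also in the VPA medium, and the SCOs came from edited clones with a reporter in the 3′ untranslated region (UTR) of SOX10. The study describes the columns of its RNA sequencing heatmaps as 3 clones. The library labels carry the codes C4, C5 and C6, each of which recurs in all 3 conditions. No label ties a code or a replicate number to a clone. The main tests treated the libraries as unpaired, and the replicate number was used as a block only in an alternative. Their p-values measure the spread between these libraries.

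SOX1, SOX2 and SOX3 are the SOXB1 transcription factors, which hold neural progenitors in an undifferentiated state, while SOX21 is a SOXB2 factor that acts largely as a repressor on similar sites. NES encodes nestin, an intermediate filament protein of neural progenitors, MSI1 encodes the RNA-binding protein Musashi-1, and PROM1 encodes prominin-1 (CD133), a membrane glycoprotein of apical progenitor surfaces. LIN28A and LIN28B are RNA-binding proteins that block the maturation of the let-7 microRNAs, and the let-7 family represses LIN28 in turn. SALL4 is a zinc-finger transcription factor of pluripotent and early embryonic cells.

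The libraries held 15290299 to 17417338 counted reads, so the level of 3 counts lay between 0.17 and 0.198 CPM (read counts scaled to a common library size). All 10 genes lay far above it and passed the filter on low counts in every comparison. The scaling used TMM factors, which correct for differences in RNA composition between libraries. Replicates differed by more than counting noise in each condition (mean chi-square per gene 4.75 to 39.1 for pairs of replicates, where 1 is counting noise), and most between vehicle replicates 1 and 3. The 14 neuron markers summed to 1862 CPM in vehicle replicate 1, 2459 CPM in replicate 2 and 3336 CPM in replicate 3, against 1722 to 2030 CPM in the 6 treated libraries. The 8 spinal HOX genes summed to between 158 and 431 CPM in every library and the 8 forebrain markers to at most 4.46 CPM. Among the 10 genes, vehicle replicate 3 had the lowest vehicle value for 6 and vehicle replicate 1 the highest for 6.

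Per transcript length, SOX3 had the highest level of the 10 genes in every condition. In the deposited FPKM (fragments per kilobase of transcript, scaled to library size), the mean of SOX3 over 3 libraries was 305 ± 45.5 (SD) under vehicle, 347 ± 6.31 under VPA and 346 ± 20.7 when Rapamycin was added. NES followed at 133 to 142 FPKM as the mean of a condition, then SOX2 at 108 to 110 and SOX21 at 67.6 to 74.3. The ranges of these 4 genes did not touch in any condition. Below them the order depended on the condition. In vehicle, the next were MSI1 (48.9 ± 10.2 FPKM), SALL4 (46.9 ± 9.81), LIN28A (38.1 ± 19.5) and SOX1 (35.6 ± 3.92). Each neighbour in this order overlapped with the next. In VPA SOX1 (41.7 ± 2.10) and LIN28A (37.9 ± 6.17) overlapped with each other and stood above SALL4 (30.1 ± 0.658) and MSI1 (30.0 ± 3.02), which again overlapped. In VPA + Rapamycin SOX1 (41.6 ± 0.722) stood above MSI1 (32.4 ± 2.43) and SALL4 (28.3 ± 2.31), and the range of LIN28A (26.1 ± 8.92) overlapped with those of MSI1 and SALL4. LIN28B averaged 16.2 to 23.3 FPKM and PROM1 8.69 to 11.9, the lowest of the 10 in every condition.

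**Figure D1:**
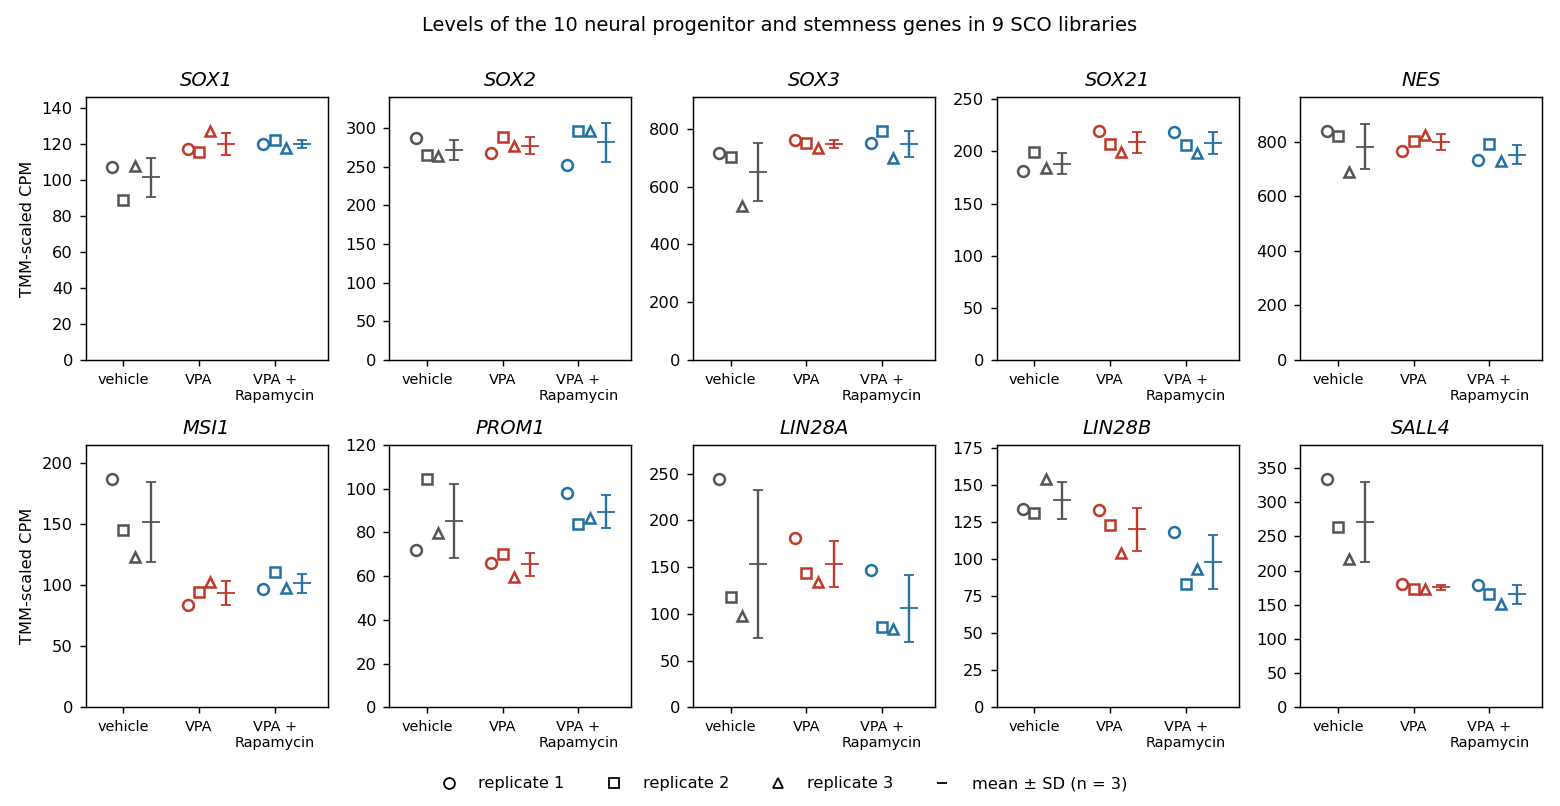
TMM-scaled CPM of the 10 genes in each library on linear axes from 0, with the condition on the x axis, the replicate number as the symbol and a bar for the mean ± SD of 3 libraries. SALL4 in the VPA libraries lies between 173 and 180 CPM, below every vehicle library, while SOX2 overlaps among the 3 conditions.

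VPA lowered 2 of the 10 genes relative to vehicle, MSI1 and SALL4, and no gene of the 10 was raised by the test across all genes (edgeR's quasi-likelihood test, adjusted p of at most 0.05). The share of all 17360 genes called was 32.1%, with 16.4% higher and 15.7% lower, so the 20% called among the 10 was not above the background. For 5 of the 10 the 3 vehicle and the 3 VPA libraries did not overlap, against 47.5% of all genes. The median log2 fold change of the 10 was 0.0055, beside -0.0030 over all genes.

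With Rapamycin added to VPA, 2 of the 10 passed, PROM1 higher and LIN28A lower, against 6.74% of 17317 genes (3.01% higher and 3.73% lower). Groups did not overlap for PROM1 alone, against 25.5% of all genes. The median log2 fold change of the 10 was -0.00076, beside 0.0039 over all genes. Without VPA replicate 1, 2 or 3, or without VPA + Rapamycin replicate 2 or 3, the count fell to 1, PROM1 each time. A single fit of all 9 libraries called none of the 10 in edgeR, with 2 at an unadjusted p under 0.05, while DESeq2 on the pair called 1.

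VPA + Rapamycin was also set against vehicle, a comparison that shares its libraries with both others. MSI1, LIN28B and SALL4 were lower and none was higher, against 19.0% of 17383 genes called (9.81% higher and 9.22% lower). With library totals in place of TMM the calls over all genes moved to 2060 higher and 1255 lower, from 1705 and 1602, and the 3 genes called among the 10 were the same. Groups did not overlap for 4 of the 10, against 38.5% of all genes. Without vehicle replicate 2, or VPA + Rapamycin replicate 2 or 3, the count fell to 1, SALL4 each time. The median log2 fold change of the 10 was -0.011, beside -0.00087 over all genes.

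**Figure D2:**
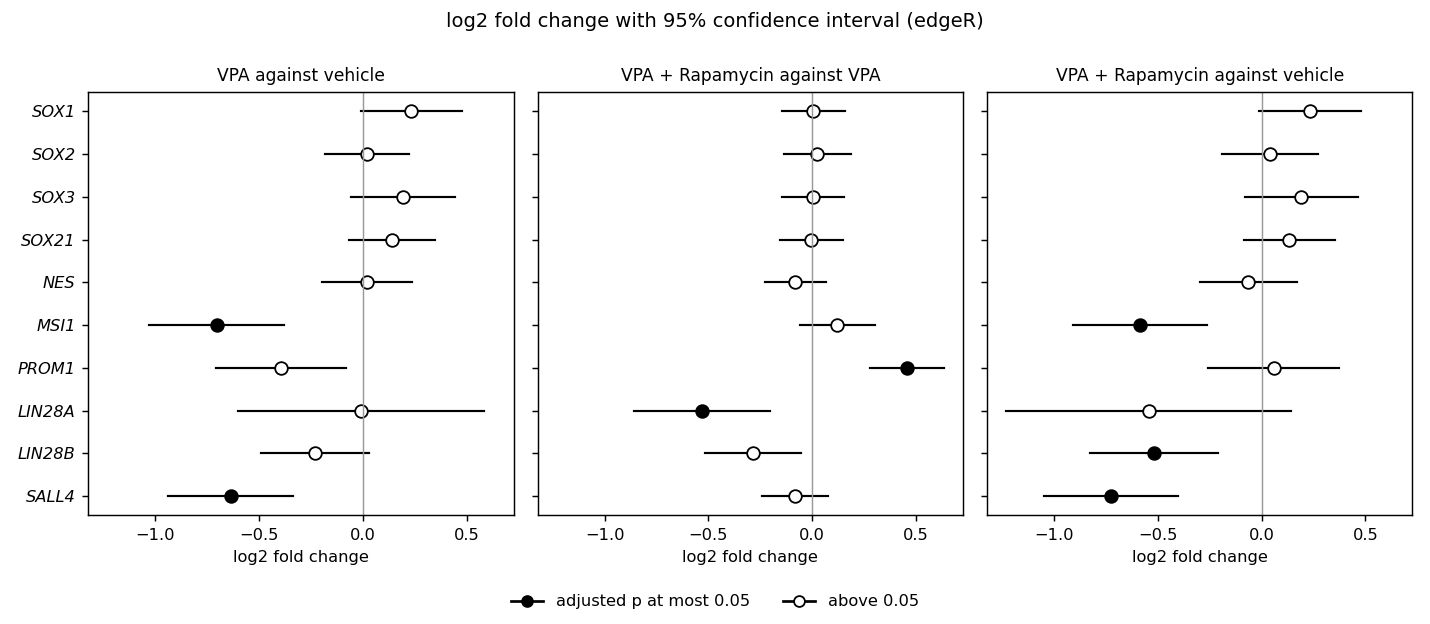
log2 fold change (x axis) of each of the 10 genes (y axis) in the 3 comparisons, with bars for the 95% confidence interval and filled points for an adjusted p of at most 0.05 in edgeR. Filled points are MSI1 and SALL4 in VPA against vehicle, PROM1 and LIN28A in VPA + Rapamycin against VPA, and MSI1, LIN28B and SALL4 in VPA + Rapamycin against vehicle.

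None of the 4 SOXB genes passed the test in any comparison. SOX2 (chr3:181711924-181714436, + strand, GRCh38) is the SOXB1 factor shared by pluripotent and neural stem cells. It measured 287, 265 and 263 CPM in vehicle, 267, 289 and 276 CPM in VPA and 253, 296 and 296 CPM in VPA + Rapamycin. All 3 conditions overlapped. Its log2 fold change was 0.02 for VPA against vehicle (95% confidence interval -0.18 to 0.22), 0.02 for VPA + Rapamycin against VPA (-0.14 to 0.18) and 0.04 for VPA + Rapamycin against vehicle (-0.19 to 0.27). SOX2 lies within SOX2-OT, a noncoding transcript on the same strand whose mean count was 28.3% of that of SOX2, so some reads may belong to either. SOX2-OT was 91.4 ± 21.2 CPM in vehicle and 70.4 ± 6.69 in VPA, and did not pass (edgeR adjusted p = 0.0893).

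SOX1 (chr13:112067647-112070488, + strand) is among the first genes of the neural plate. It measured 107, 88.6 and 108 CPM in vehicle, against 117, 115 and 127 CPM in VPA and 120, 122 and 118 CPM in VPA + Rapamycin. Every treated library stood above every vehicle library. The log2 fold change of 0.23 (standard error (SE) 0.11) for VPA against vehicle did not pass, with an edgeR adjusted p of 0.131. It did pass without vehicle replicate 3 (log2 fold change 0.29, edgeR adjusted p = 0.0415). For VPA + Rapamycin against vehicle the log2 fold change was 0.24 (edgeR adjusted p = 0.165). Between VPA and VPA + Rapamycin it was 0.00, with an interval from -0.15 to 0.16.

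SOX3 (chrX:140502985-140505116, - strand), the remaining SOXB1 gene, measured 716, 703 and 534 CPM in vehicle, 761, 750 and 735 CPM in VPA and 753, 792 and 700.3 CPM in VPA + Rapamycin. The VPA libraries stood above all vehicle libraries, and vehicle replicate 3 lay well below the other 8. Its log2 fold change was 0.19 for VPA against vehicle (95% confidence interval -0.06 to 0.44, edgeR adjusted p = 0.222) and 0.19 for VPA + Rapamycin against vehicle (-0.08 to 0.46). Between the 2 treated conditions the mean was 749 and 748 CPM. SOX21 (chr13:94709622-94712399, - strand) measured 181, 200 and 184 CPM in vehicle, 219, 208 and 199.7 CPM in VPA and 219, 206 and 198 CPM in VPA + Rapamycin. The highest vehicle library of SOX21 reached into the range of the treated libraries, and the log2 fold changes against vehicle were 0.14 and 0.13 (edgeR adjusted p = 0.288 and 0.38). All 4 SOXB genes had an estimate above 0 in both comparisons with vehicle (SOX2 only just, and below 0 without VPA replicate 2), with a median of 0.17 for VPA and 0.16 for VPA + Rapamycin.

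Of the cytoskeletal, RNA-binding and membrane genes of progenitors, NES did not pass, MSI1 fell in both treated conditions relative to vehicle, and PROM1 was higher in VPA + Rapamycin than in VPA. NES (chr1:156668763-156677397, - strand) measured 837, 820 and 687 CPM in vehicle, 767, 803 and 823 CPM in VPA and 734, 793 and 728 CPM in VPA + Rapamycin. All conditions overlapped. The intervals of its log2 fold change ran from -0.20 to 0.24 for VPA against vehicle, from -0.23 to 0.07 for VPA + Rapamycin against VPA and from -0.30 to 0.17 for VPA + Rapamycin against vehicle.

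MSI1 (chr12:120341330-120369180, - strand) measured 187, 145 and 123 CPM in vehicle, 83.9, 94.1 and 103 CPM in VPA and 96.6, 111 and 97.4 CPM in VPA + Rapamycin. Every treated library was below every vehicle library. In VPA MSI1 fell by 38.7% (log2 fold change -0.70, SE 0.15, edgeR adjusted p = 0.00447), a call kept in all 13 alternatives, where the log2 fold change ran from -0.83 to -0.53. In VPA + Rapamycin it fell by 33.4% relative to vehicle (log2 fold change -0.59, SE 0.15, edgeR adjusted p = 0.0197). This call was lost without vehicle replicate 2 (adjusted p = 0.0543) and without VPA + Rapamycin replicate 1, 2 or 3 (0.0937, 0.0501 and 0.0826), with log2 fold changes from -0.65 to -0.55. Between VPA and VPA + Rapamycin the groups overlapped (log2 fold change 0.12, 95% confidence interval -0.06 to 0.30). As these are bulk samples, fewer cells with a transcript and less of it per cell cannot be told apart, here and for each gene below.

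PROM1 (chr4:15963076-16084378, - strand) measured 71.9, 104 and 79.5 CPM in vehicle, 65.9, 70.3 and 59.7 CPM in VPA and 97.8, 83.8 and 86.3 CPM in VPA + Rapamycin. The VPA libraries lay below all the others. VPA + Rapamycin exceeded VPA by 37.1% (log2 fold change 0.46, SE 0.09, edgeR adjusted p = 0.00327), and 12 of 13 alternatives kept the call. The single fit of all 9 libraries did not, with an adjusted p of 0.139 at a log2 fold change of 0.45. VPA against vehicle gave a log2 fold change of -0.40 (SE 0.14) that did not pass, with an edgeR adjusted p of 0.0540. It passed in 5 of 13 alternatives: DESeq2 (0.0386), no filter on low counts (0.0231), all 9 libraries in a single fit (0.0288), without vehicle replicate 1 (0.00667) and without vehicle replicate 3 (0.0157). VPA + Rapamycin and vehicle overlapped (log2 fold change 0.06, 95% confidence interval -0.26 to 0.37). Both PROM1 comparisons use the same VPA libraries. PROM1 also overlaps FGFBP2 on the same strand, which had at most 3 counts in any library.

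LIN28A, LIN28B and SALL4 each had an estimate below 0 in all 3 comparisons, although that of LIN28A in VPA against vehicle changed sign in 7 of 13 alternatives. The estimate for VPA + Rapamycin against vehicle follows largely from the other comparisons, so its sign is not a separate observation. LIN28A, LIN28B and SALL4 are also the 3 of the 10 genes whose 3′ UTR holds a match to the let-7 seed. MSI1 holds no match and had log2 fold changes against vehicle of -0.70 in VPA and -0.59 in VPA + Rapamycin. A link between the matches and these changes was not tested. The mature sequences of let-7a to let-7i and of miR-98-5p, 9 names in RefSeq (GRCh38.p14), are 22 bases long and share the seed at bases 2 to 8, shown in capitals for 3 of them, since the sites below pair with it:
hsa-let-7a-5p: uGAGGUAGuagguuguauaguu
hsa-let-7b-5p: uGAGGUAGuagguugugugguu
hsa-miR-98-5p: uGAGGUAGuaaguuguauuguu
The reverse complement of the seed, CTACCTC, was searched for on the transcript strand of 1 principal transcript a gene in GENCODE 29 (GRCh38). LIN28A held 1 match, LIN28B 4 and SALL4 1, shown with the match in capitals, 15 bases before it and 1 after:
LIN28A, chr1:26427348-26427370, + strand: gcacagcctattgaaCTACCTCa
LIN28B, chr6:105078812-105078834, + strand: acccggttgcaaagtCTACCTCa
LIN28B, chr6:105081239-105081261, + strand: tactgatgatagtaaCTACCTCt
LIN28B, chr6:105081421-105081443, + strand: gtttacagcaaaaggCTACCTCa
LIN28B, chr6:105082860-105082882, + strand: aaatgatggtgttgaCTACCTCt
SALL4, chr20:51782923-51782945, - strand: aaagctttaatttatCTACCTCa
Of 19581 genes with a coding transcript, 8.32% had a match in the 3′ UTR, and 20.3% of the 4903 with a 3′ UTR of at least 2000 bases. The 3′ UTR was 3264 bases in LIN28A, 4549 in LIN28B and 1934 in SALL4, against a median of 826 over all genes. A match describes the letters only, and mature let-7 was not measured in these poly-A libraries.

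LIN28A (chr1:26410778-26429722, + strand) varied the most among replicates. It measured 244, 118 and 97.5 CPM in vehicle, 182, 144 and 135 CPM in VPA and 148, 85.9 and 84.2 CPM in VPA + Rapamycin, in the order of replicates 1, 2 and 3. Replicate 1 was the highest library of every condition, and all conditions overlapped. The 5 surface epithelium genes in the tables, a list that includes the keratins KRT8 and KRT18, were in sum also highest in replicate 1 of each condition. They summed to 47.2, 17.8 and 7.80 CPM in vehicle replicates 1 to 3, to 47.9, 29.1 and 24.4 CPM under VPA, and to 35.4, 18.6 and 18.8 CPM with Rapamycin added. CDH1 and TP63, which define that epithelium, averaged at most 0.250 CPM in any condition, and the part of these cells in the LIN28A values was not tested. The coefficient of variation of LIN28A over replicates was 51.8% for vehicle, 16.2% for VPA and 34.1% for VPA + Rapamycin, against 1.76% to 21.6% for the other 9 genes.

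LIN28A was lower in VPA + Rapamycin than in VPA, with means of 106 and 153 CPM (log2 fold change -0.53, SE 0.16, edgeR adjusted p = 0.0474). That call stood close to the threshold and was kept in 5 of 13 alternatives. It was lost in DESeq2 (adjusted p = 0.34), with library totals (0.0571), in the single fit of all 9 libraries (0.447), without VPA replicate 1, 2 or 3 (0.203, 0.095 and 0.0551) and without VPA + Rapamycin replicate 2 or 3 (0.136 and 0.216). Without VPA + Rapamycin replicate 1 the log2 fold change was -0.85 (edgeR adjusted p = 5.46e-05). The estimate stayed below 0 in all 13.

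Against vehicle, LIN28A did not pass in either condition. VPA gave a log2 fold change of -0.01 with a wide interval of -0.60 to 0.58, and the value rested on vehicle replicate 1: without it the log2 fold change was 0.50, past the threshold (edgeR adjusted p = 0.0103). VPA + Rapamycin gave -0.54 (SE 0.31, edgeR adjusted p = 0.249). Without vehicle replicate 1 it was -0.04 (adjusted p = 0.914), and without vehicle replicate 3 it was -0.78 and passed (0.0385). With the replicate number as a block it was -0.48 and passed (edgeR adjusted p = 0.0111), and it also passed with no filter on low counts (0.0207).

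LIN28B (chr6:104936616-105083332, + strand), the paralog of LIN28A, measured 134, 131 and 154 CPM in vehicle, 133, 123 and 104 CPM in VPA and 119, 83.2 and 93.1 CPM in VPA + Rapamycin. The VPA + Rapamycin libraries were below all vehicle libraries, and the VPA libraries overlapped with both. In VPA + Rapamycin LIN28B fell by 30.2% relative to vehicle (log2 fold change -0.52, SE 0.14, edgeR adjusted p = 0.0263), in 10 of 13 alternatives. The call was lost without vehicle replicate 2 (adjusted p = 0.0613) and without VPA + Rapamycin replicate 2 or 3 (0.122 and 0.111). The other comparisons did not pass, with log2 fold changes of -0.23 for VPA against vehicle (edgeR adjusted p = 0.16) and -0.29 for VPA + Rapamycin against VPA (0.131). The second of these passed under 3 of 13 alternatives, among them no filter on low counts (0.0116) and the fit without VPA + Rapamycin replicate 1 (log2 fold change -0.44, adjusted p = 0.00945). The opposite-strand LIN28B-AS1 had a mean count of 1.83% of that of LIN28B.

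SALL4 (chr20:51782331-51802520, - strand) fell in both treated conditions relative to vehicle. It measured 334, 263 and 218 CPM in vehicle, 180, 174 and 173 CPM in VPA and 178, 166 and 152 CPM in VPA + Rapamycin. No treated library reached the lowest vehicle library. In VPA SALL4 fell by 35.7% (log2 fold change -0.64, SE 0.14, edgeR adjusted p = 0.00516), and in VPA + Rapamycin it fell by 39.5% relative to vehicle (log2 fold change -0.72, SE 0.15, edgeR adjusted p = 0.00805). Both calls were kept in all 13 alternatives, which held for no other of the 10 genes. Between VPA and VPA + Rapamycin the log2 fold change was -0.08 (95% confidence interval -0.24 to 0.07, edgeR adjusted p = 0.566).

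**Figure D3:**
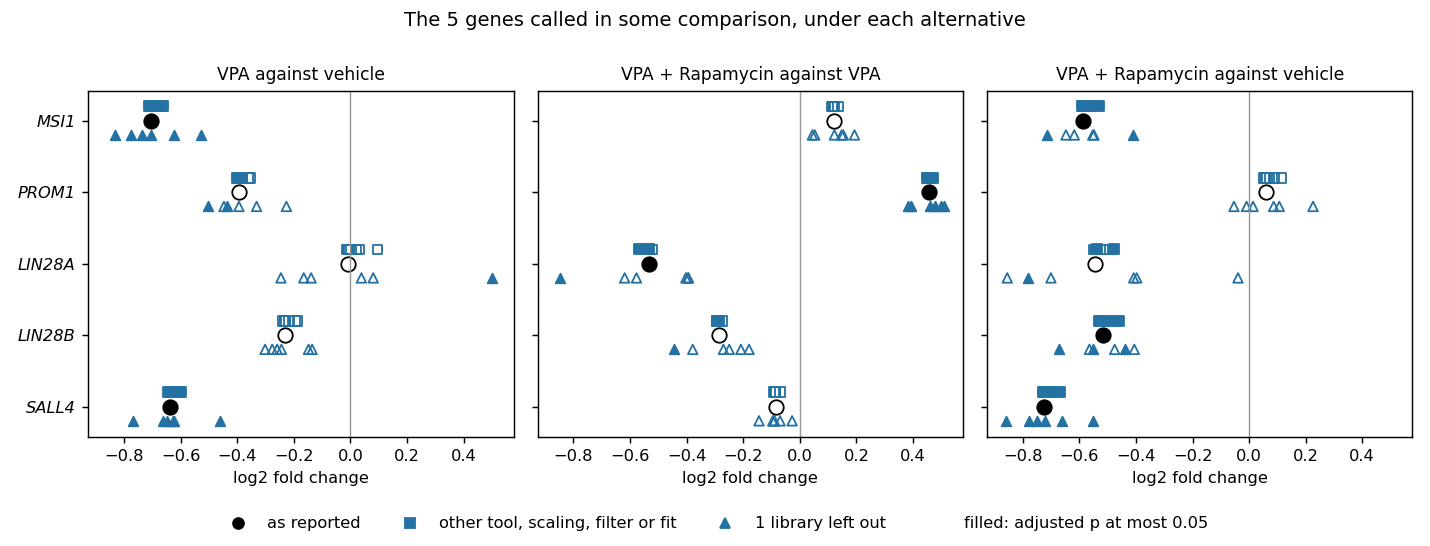
log2 fold change (x axis) of the 5 genes that passed in some comparison, as reported (circles), under another tool, scaling, filter or fit (squares) and with 1 library left out (triangles), filled where the adjusted p was at most 0.05. MSI1 and SALL4 stay filled in VPA against vehicle, while LIN28A spreads from -0.25 to 0.50 there.

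The relatives of the 10 genes moved in different ways. Of 12 SOX genes outside the 10 with enough counts, 7 were lower in VPA than in vehicle and none higher. Over all genes 15.7% were lower and 16.4% higher, and the median log2 fold change of the 12 was -0.48. SOX14, the other SOXB2 gene, fell from 14.9 ± 2.57 to 2.08 ± 0.289 CPM (log2 fold change -2.85, edgeR adjusted p = 1.56e-05). SOX10, the neural crest factor whose locus carried the reporter, fell from 17.0 ± 3.21 to 0.476 ± 0.162 CPM (edgeR adjusted p = 2.52e-06). SOX11, a SOXC factor of neurons in differentiation, fell from 227 ± 33.2 to 122 ± 35.6 CPM, and SOX13 from 185 ± 24.3 to 127 ± 3.81 CPM. In VPA + Rapamycin 2 of the 12 exceeded their level in VPA, SOX14 at 6.35 ± 1.196 CPM (edgeR adjusted p = 0.000793) and SOX10 at 2.20 ± 1.75 CPM (0.0345), and 4 were below vehicle. None of SALL1, SALL2 and SALL3, the relatives of SALL4, passed in any comparison. Against vehicle, the log2 fold change in VPA was 0.22 for SALL1, -0.27 for SALL2 and -0.34 for SALL3 (edgeR adjusted p = 0.092, 0.117 and 0.0788).

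Among 14 other neural progenitor genes tested, 5 were lower and 1 higher in VPA than in vehicle, against 15.7% and 16.4% of all genes. MSI2, the paralog of MSI1, fell from 380 ± 22.5 to 261 ± 5.73 CPM (log2 fold change -0.55, edgeR adjusted p = 0.00134) and was 265 ± 5.63 CPM in VPA + Rapamycin. PTPRZ1, a receptor phosphatase of radial glia, fell from 788 ± 110 to 539 ± 24.8 CPM, and the receptor NOTCH1 from 538 ± 30.3 to 391 ± 48.8 CPM. HES5, a target of Notch signalling, rose from 316 ± 2.14 to 616 ± 73.4 CPM (log2 fold change 0.95, edgeR adjusted p = 0.000114). Rapamycin with VPA lowered HES5 to 403 ± 36.2 CPM relative to VPA (edgeR adjusted p = 0.000444). In that comparison 3 of the 14 were lower and 2 higher, with FABP7 and HES1 among the first and NOTCH1 among the second, and against vehicle 4 were lower and 1 higher.

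The other genes tied to let-7 were measured at the level of mRNA. Of 8 let-7 target genes, 7 hold the seed match in their 3′ UTR, all but MYCN. In VPA against vehicle 3 of the 8 were lower, against 15.7% of all genes. IGF2BP2 fell from 284 ± 6.86 to 206 ± 5.03 CPM (log2 fold change -0.47, edgeR adjusted p = 0.0026), IGF2BP3 from 144 ± 1.51 to 107 ± 9.08 CPM (0.00716) and TRIM71 from 254 ± 31.8 to 207 ± 5.23 CPM (0.0496). With upper-quartile scaling or library totals this count was 2. None of the 8 passed between VPA + Rapamycin and VPA. Against vehicle, IGF2BP3 and IGF2BP2 were lower and MYCN higher in VPA + Rapamycin (66 against 49 CPM, edgeR adjusted p = 0.0476).

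Of 7 genes for let-7 processing and turnover, the uridylyltransferase TUT4 fell from 186 ± 26.9 to 134 ± 5.42 CPM in VPA (edgeR adjusted p = 0.00923), and DICER1, which cuts the hairpin, from 273 ± 49.95 to 207 ± 7.20 CPM (0.033). Under upper-quartile scaling or library totals 1 of the 7 was also higher. None passed in the other comparisons. The host transcripts MIR100HG and MIR99AHG fell in VPA, from 20.01 ± 6.65 to 8.81 ± 1.19 CPM and from 31.9 ± 9.95 to 15.8 ± 0.769 CPM. MIR99AHG was higher in VPA + Rapamycin than in VPA, at 24.9 ± 2.30 CPM (edgeR adjusted p = 0.00219).

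Of the pluripotency genes, POU5F1 and NANOG averaged at most 0.497 CPM in any condition, near the level of 3 counts, beside the higher levels of LIN28A and SALL4 given above. DPPA4 fell in VPA from 186 ± 44.0 to 96.7 ± 12.4 CPM (edgeR adjusted p = 0.0015) and was 112 ± 11.8 CPM in VPA + Rapamycin, also below vehicle (0.0116). L1TD1, an RNA-binding partner of LIN28 in stem cells, rose in VPA from 6.21 ± 2.47 to 21.0 ± 2.00 CPM (edgeR adjusted p = 0.000421) and fell to 11.2 ± 2.82 CPM in VPA + Rapamycin relative to VPA (0.00219). Of the genes of neuromesodermal progenitors, which give rise to the spinal cord, NKX1-2 fell from 9.32 ± 0.522 to 2.88 ± 1.17 CPM in VPA (edgeR adjusted p = 0.00131) and was 6.91 ± 0.516 CPM in VPA + Rapamycin, above VPA (0.00722). FGF17 fell from 3.40 ± 0.821 to 1.46 ± 0.350 CPM in VPA.

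**Figure D4:**
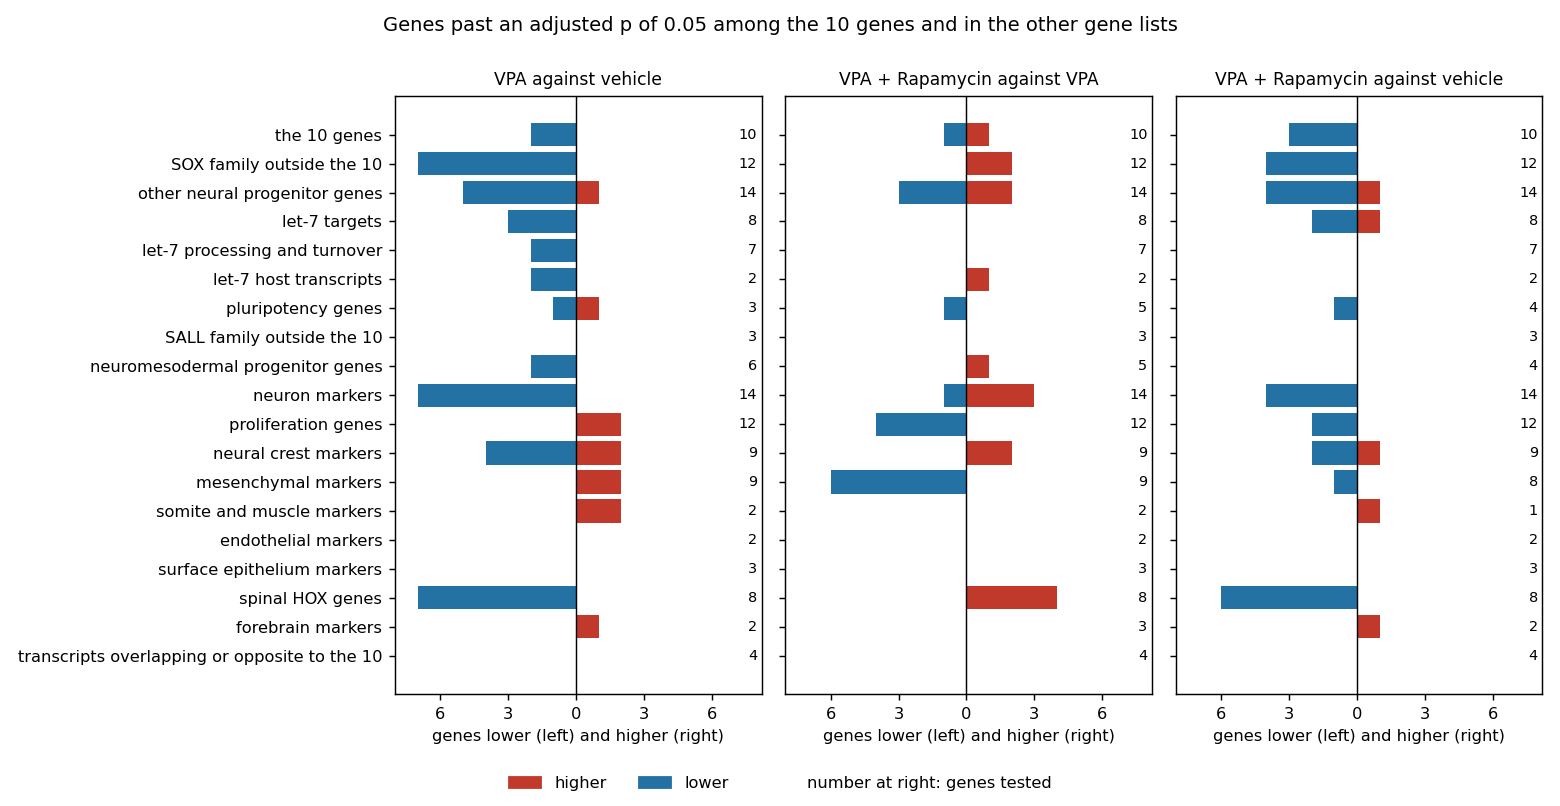
Number of genes lower (blue, left) and higher (red, right) at an adjusted p of at most 0.05 for the 10 genes and for each further list (y axis) in the 3 comparisons, with the number of genes tested at the right. The SOX family outside the 10, the neuron markers and the spinal HOX genes each have 7 lower genes in VPA against vehicle, where the 10 have 2.

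Some markers of other cells and states in the SCOs also passed in these comparisons, and their part in the values of the 10 genes was not tested. Over all genes, 16.4% were higher and 15.7% lower in VPA against vehicle, so a few calls in a list do not set it apart. In VPA against vehicle 7 of 14 neuron markers were lower (ELAVL4 from 210 ± 56.9 to 92.6 ± 8.71 CPM, MYT1L, ELAVL3 and DCX), as were 7 of 8 spinal HOX genes (HOXB8 from 143 ± 27.9 to 69.2 ± 5.79 CPM, HOXC8, HOXC6 and HOXB5). Of 12 proliferation genes BIRC5 and PCNA were higher, with sums of 2802 to 2956 CPM in VPA and 2344 to 2748 CPM in vehicle. COL1A2 and COL1A1 were the 2 of 9 mesenchymal genes that rose, COL1A2 from 72.8 ± 39.1 to 320 ± 39.0 CPM, and the list summed to 578 to 736 CPM against 151 to 317 CPM. COL1A1 went from 125 ± 66.8 to 270.2 ± 41.6 CPM, so the higher sum lay in these 2 collagen genes. The other 7 genes tested had no call, 4 of the 9 estimates were below 0, among them PDGFRA at -1.06 and POSTN at -1.15, and the median log2 fold change of the list was 0.02. Of 9 neural crest genes 4 were lower, SOX10 and FOXD3 among them, and 2 higher (ERBB3 and ETS1), and sums overlapped, at 412 to 434 CPM in VPA and 411 to 510 CPM in vehicle. The somite genes MYOD1 and TCF15 were higher, at no more than 9.07 CPM in sum, and the forebrain gene LHX2 rose to 1.41 CPM. Endothelial and surface epithelium genes had no call, and CDH5 and PECAM1 averaged under 1 CPM in each condition.

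In VPA + Rapamycin against VPA, all 12 proliferation genes had an estimate below 0 and 4 passed (BIRC5, CCNA2, AURKB and CCNB1), with sums of 2315 to 2637 CPM. In this comparison 3.01% of all genes were higher and 3.73% lower. Of 9 mesenchymal genes 6 were lower, COL1A2 at 128 ± 34.8 CPM, and their sum was 257 to 383 CPM. Neuron markers were higher for 3 (ELAVL4, DCX and NEFM) and lower for GAP43, and 4 of 8 HOX genes were higher (HOXB8, HOXC8, HOXB5 and HOXB6). FOXD3 and SOX10 of the neural crest list were higher. With upper-quartile scaling or library totals the counts were 2 neuron markers higher, 5 mesenchymal genes lower and 3 HOX genes higher. Against vehicle, VPA + Rapamycin had 4 neuron markers lower, 6 HOX genes lower, CCNA2 and CCNB1 lower, PDGFRA lower, SOX10 of the neural crest list lower with ERBB3 higher, and TCF15 and LHX2 higher. There, 9.81% of all genes were higher and 9.22% lower.

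Over the 9 libraries, the 5 genes with the pattern most like that of LIN28A among 15929 genes were ZC4H2, LRIG3, DGLUCY, SLC5A12 and GRB10, with Pearson's r of log2 CPM from 0.931 to 0.96. For SOX2 they were SIRT4, CTC-338M12.4, DCST1, CRAT and SLC25A42, with r from 0.853 to 0.92. These are descriptions over libraries that share their conditions and replicate numbers. SIRT4, CTC-338M12.4 and DCST1 averaged between 0.985 and 2.07 CPM in each condition, where counting error is large.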

How the data were processed

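Poly-A RNA of whole SCOs was sequenced in 9 libraries, grouped by the treatment labels. The submitters' processing notes name HISAT2 2.0.5 and featureCounts 1.5.0-p3. Whether strand was used is not given in the sources used here. The authors deposited raw counts per gene in a table for each pair of conditions, with GRCh38 coordinates, and left out genes with under 2 reads over the 6 libraries. The authors also deposited FPKM, used here only to compare levels between genes. A further 18 columns of size-factor-normalized counts and the authors' fold changes and p-values were not used.

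Each pair of conditions was tested in its own table with edgeR 4.0.16 in R 4.3.3 (TMM, filterByExpr, quasi-likelihood F test, Benjamini-Hochberg over all genes tested, threshold 0.05). SE was taken from the estimate and F. CPM were scaled with TMM over the 9 libraries. The code was tested on simulated counts. Intervals cover the spread between libraries, and the level of 3 counts covers counting error only. Alternatives were DESeq2 1.42.0, RLE and upper-quartile factors, library totals, no filter, a single fit of 9 libraries, a replicate block and each library left out. The members, lists and tests were chosen with earlier results of these data known. Beside the 10 genes, up to 4 called genes of each list with the smallest adjusted p were named. SALL1, SALL2, SALL3, POU5F1, NANOG, CDH5, PECAM1, CDH1, TP63, KRT8, KRT18, PDGFRA and POSTN were added after their values were seen. Same-numbered libraries of vehicle and VPA + Rapamycin deviated together from their group means (correlations 0.117, 0.1 and 0.217), so the block is given beside LIN28A there.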

Additional observations from a re-analysis of the deposited data

How the results depend on the processing

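The calls of MSI1 and SALL4 in VPA against vehicle and of SALL4 in VPA + Rapamycin against vehicle held in all 13 alternatives. The number of the 10 genes called ran from 2 to 4 with 1 library left out in VPA against vehicle, from 1 to 3 in VPA + Rapamycin against VPA and from 1 to 4 in VPA + Rapamycin against vehicle. In VPA + Rapamycin against VPA it was 1 in DESeq2, 1 with library totals and 0 in the single fit of all 9 libraries, where edgeR had 2 at an unadjusted p under 0.05. That fit pools the larger spread of the vehicle libraries. It called 113 genes in all, against 1168 in the pair alone. With 1 library left out the calls over all genes ran from 3390 to 6710 (5568 with all) in VPA against vehicle, from 472 to 1203 in VPA + Rapamycin against VPA and from 1295 to 4314 (3307 with all) in VPA + Rapamycin against vehicle, and fewer libraries were fitted.

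With the replicate number as a block, 2, 3 and 4 of the 10 genes were called. The added calls were LIN28B in VPA + Rapamycin against VPA (adjusted p = 0.0447) and LIN28A against vehicle. In VPA against vehicle (correlations of same-numbered libraries 0.0702, 0.0551 and -0.0768) and in VPA + Rapamycin against VPA (0.133, -0.0285 and 0.0222) the numbers were not shown to pair the libraries, and 1 of 3 correlated best with its own number in each.

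Estimates near 0 changed sign. For LIN28A in VPA against vehicle these were 0.0209 with upper-quartile factors, 0.0297 with library totals, 0.0026 with no filter and 0.10 with the replicate block, and with 1 library left out it ran from -0.25 to 0.50. NES ran from -0.0594 to 0.0723 and SOX2 from -0.0057 to 0.0609 in that comparison. In VPA + Rapamycin against VPA, SOX3 was -0.00142 in DESeq2, -0.00463 with no filter and -0.000228 in the single fit, SOX21 0.0103 with library totals and SOX1 -0.00247 with no filter. With 1 library left out SOX1 ran from -0.0230 to 0.0468, SOX2 from -0.0158 to 0.0934, SOX3 from -0.0418 to 0.0467 and SOX21 from -0.0448 to 0.0298, and PROM1 in VPA + Rapamycin against vehicle from -0.0536 to 0.226. The cause of these changes was not tested. Counts for the other gene lists were run under the same alternatives after seeing the data. With higher and lower calls taken separately, 189 of these counts moved from the reported count, and 617 stayed at or near it. The list counts given above are therefore not all stable. No scaling moved the median of all genes by over 0.1 on the log2 scale. With 3 libraries a group, a change of the size of SOX1 or SOX3 did not pass the threshold.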
